A study of Mus musculus with 6 samples.

Results

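The genes described here are the mouse metalloproteinases and their inhibitors in lungs that carry a mutant EGFR: the matrix metalloproteinases (Mmp), the tissue inhibitors of metalloproteinases (Timp), the ADAM proteins (Adam) and the ADAMTS proteases (Adamts). They were chosen by symbol alone, without Mmp12, from probe sets that the array annotation assigns to exactly 1 gene, and 57 of the 18193 genes on the array qualified. They comprise 15 Mmp, 4 Timp, 23 Adam and 15 Adamts genes with 106 probe sets in all. Each gene was read from its probe set with the highest mean over the 6 arrays. Expression was measured in whole-lung RNA from 3 LC-HFD mice, fed a high-fat diet (HFD), and 3 LC-RD mice, fed a regular diet (RD), with 1 Affymetrix mouse array for each animal. Both groups were adult male mice, backcrossed to C57BL/6, with the transgenes CC10-rtTA and tet-O-EGFR-L858R. The CC10 promoter drives rtTA in club cells of the airway and in some other lung epithelium, and rtTA switches on the human EGFR with the L858R mutation only under doxycycline (Dox). Both groups received Dox, at 625 ppm in the food and 2 mg/ml in the drinking water, so every lung compared here had the oncogene switched on and no lung without it was compared. In the HFD, 60% of the energy came from fat. In the description of the experiment the animals were 6 weeks old at the start (6 to 8 weeks in the methods) and had 2 weeks of diet and then 8 weeks of diet with Dox, whereas the labels give the diet until 8 weeks and Dox for 7 weeks.

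Metalloproteinases are zinc enzymes that cut proteins outside the cell. MMPs degrade collagen, elastin and basement membrane and are made as inactive precursors, ADAMs release growth factors, cytokines and receptors from the cell surface (several of them no longer cut at all), and ADAMTS proteases process proteoglycans, procollagen and microfibril proteins. TIMPs bind the active site, and TIMP3 differs from the other three in that it holds on to the matrix and also blocks ADAM17 and several ADAMTS enzymes. In lung tumors this system is known for remodeling of the alveolar matrix and for the shedding of EGFR ligands.

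The deposited values are log2 signals, so a difference of 1 is a 2-fold change, and differences are given as LC-HFD minus LC-RD. The control probe sets separated the groups before any lung gene was considered. The hybridization controls, which are added to each sample after labeling, had mean log2 values of 11.49 to 11.53 on the LC-HFD arrays and 10.01 to 10.04 on the LC-RD arrays, and 18S rRNA had 7.57 to 7.69 in LC-HFD against 12.51 to 12.54 in LC-RD. Beta-actin differed by 0.03 and Gapdh by 0.24. Diet and the handling of the arrays therefore cannot be told apart. The 3' minus 5' signal of the control genes, a sign of RNA integrity, was 1.58 to 1.70 in LC-HFD and 1.70 to 1.76 in LC-RD. Array medians lay between 4.79 and 4.84. The labeled tissue fitted its markers, because 7 alveolar type II genes averaged 12.62 to 12.67 in LC-HFD lungs and 12.56 to 12.64 in LC-RD lungs. One of these genes, Sftpc, read 13.81 on every array, the highest mean of all genes, so a difference in it may not be visible. A whole-lung value can fall because fewer cells of a type were present or because each cell held less RNA, and these cannot be told apart.

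Of the 57 genes, 12 passed an adjusted p under 0.05 (limma, Benjamini-Hochberg over all 45037 probe sets), 8 higher and 4 lower in LC-HFD lungs. Mmp14, Mmp17, Timp1, Timp3, Adam8, Adam15, Adamts10 and Adamts16 were the higher ones, and Adam19, Adam22, Adamts8 and Adamts15 the lower ones. No member changed more than 2-fold, whereas 1.68% of all genes and 1.73% of all probe sets passed with a change of that size. Over all genes 27.3% passed (25.0% of all probe sets), 11.1% as higher and 16.2% as lower, so the share of members called did not exceed that of genes in general. With the 3' minus 5' signal in the model, 3 were still higher (Timp3, Adam8 and Adamts10) and 1 lower (Adamts15). The values of the 2 groups did not overlap for 23 members, 18 with LC-HFD above and 5 with LC-HFD below. Over all genes the groups did not overlap for 49.1%, of which 22.3% lay above and 26.8% below. The median difference was 0.12 over the members and 0.02 over all genes.

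**Figure D1:**
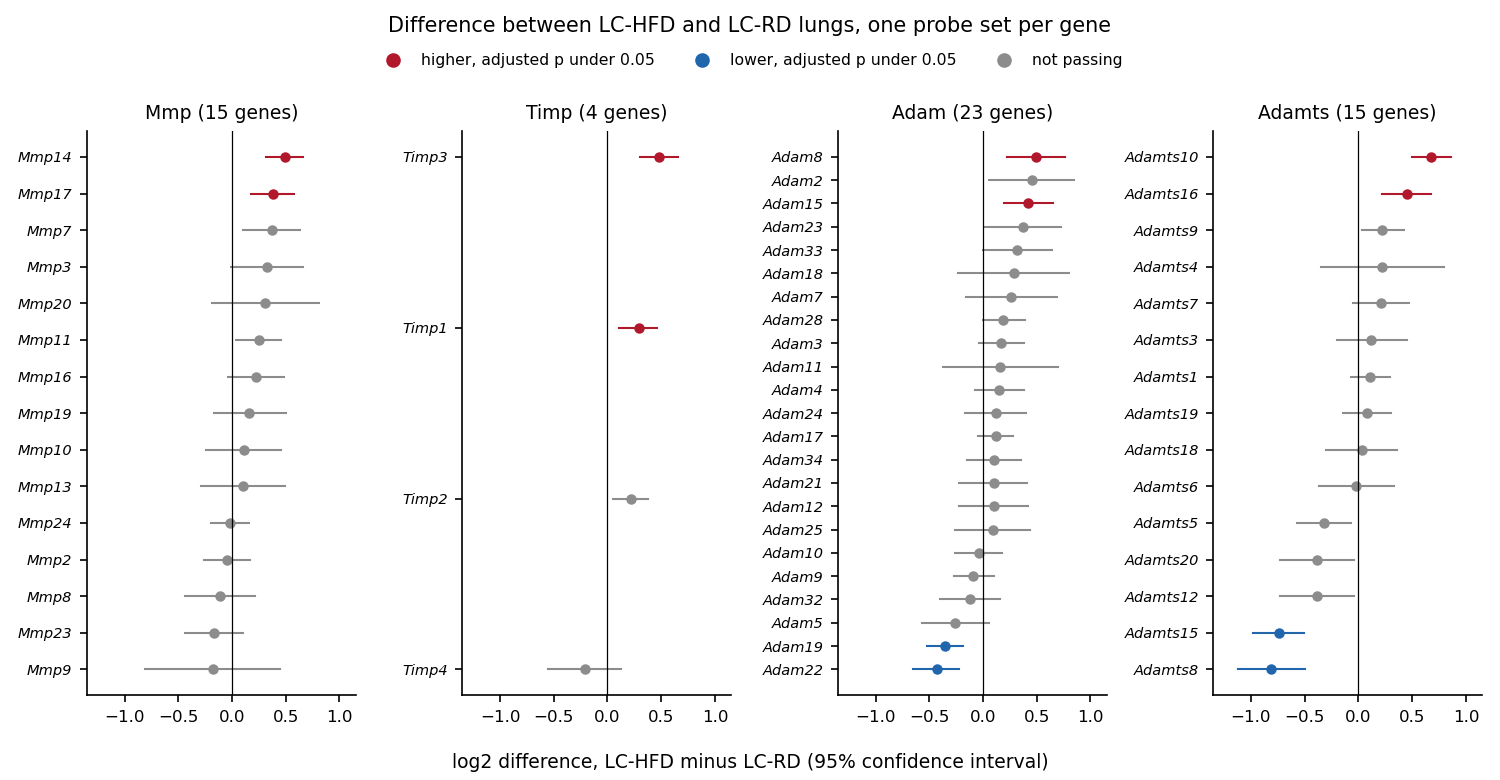
Log2 difference, LC-HFD minus LC-RD (x axis, with 95% confidence interval), for the 57 genes, by family and ordered by size. Red points passed as higher in LC-HFD (8 genes), blue points as lower (4 genes) and gray points did not pass, and all differences lie between -0.81 and 0.68.

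The calls lay among the brighter probe sets. Of the 16 members whose signal averaged 6 or more, 5 were higher and 3 lower in LC-HFD, and their median difference was 0.17 against -0.07 over all 9084 such genes, of which 35.5% passed, 12.1% as higher and 23.4% as lower. Among the 21 members between 4 and 6, 3 were higher and 1 was lower. None of the 20 members with a mean under 4 passed. Of these dim genes 17 had a positive difference, and over all 5110 genes with a mean under 4 the number was 3950, with medians of 0.14 and 0.15. The excess of positive signs among the members (39 of 57) was thus shared, at the dim end, by genes of all kinds. A typical SD between mice was 0.15 for the members in LC-HFD and 0.107 in LC-RD (medians over genes, n = 3 each).

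**Figure D2:**
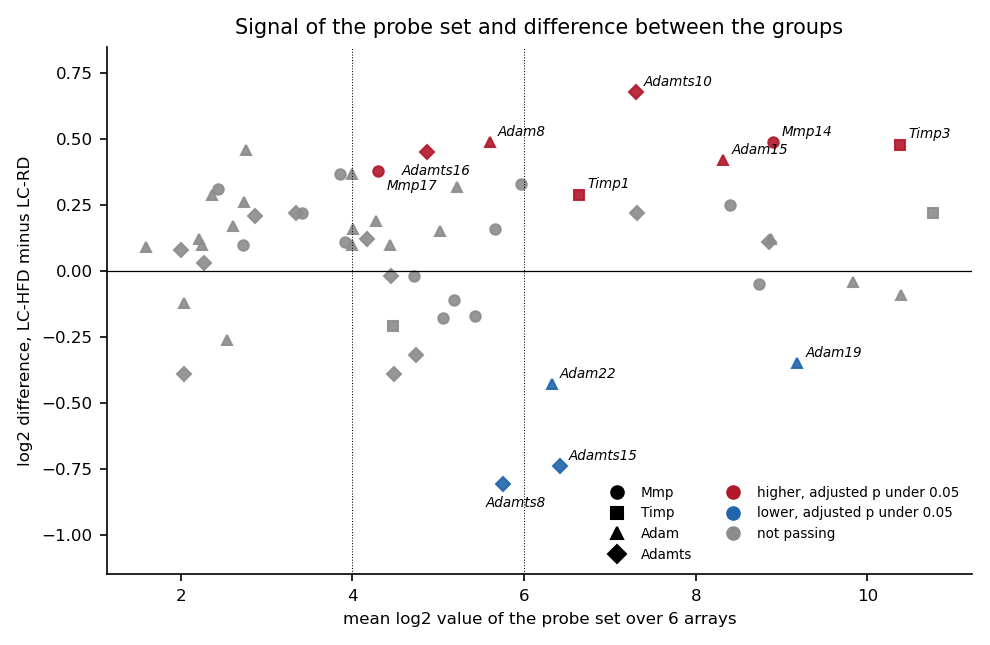
Mean log2 value of the probe set over 6 arrays (x axis) and log2 difference, LC-HFD minus LC-RD (y axis), for the 57 genes. Dotted lines mark means of 4 and 6, and no gene left of 4 passed the threshold.

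Among the members, the membrane-bound MMPs held both MMP genes that passed. Mmp14 encodes MT1-MMP, a collagenase of the cell surface that also activates pro-MMP2. Its values were 9.20, 9.14 and 9.10 in LC-HFD lungs against 8.66, 8.60 and 8.71 in LC-RD lungs, so every LC-HFD lung exceeded every LC-RD lung. The difference was 0.49 (SE 0.0730, adjusted p = 0.00428), a 1.40-fold increase. A second probe set of Mmp14 gave 0.86 (adjusted p = 0.000742) and the remaining one gave 0.29 (adjusted p = 0.0897), all in the same direction. Mmp17, which encodes the glycolipid-anchored MT4-MMP, had 4.52, 4.4 and 4.54 in LC-HFD lungs against 4.07, 4.22 and 4.03 in LC-RD lungs. Again the groups did not overlap, and the difference was 0.38 (SE 0.0844, adjusted p = 0.0178). The Mmp17 call was lost without LC-RD replicate 1 (adjusted p = 0.0748) or LC-RD replicate 3 (0.0573). For Mmp16, encoding MT3-MMP and named after its values were seen, the brightest probe set sat at 3.30 in all 3 LC-RD lungs and in LC-HFD replicate 3, with a difference of 0.22 (adjusted p = 0.190). A dimmer Mmp16 probe set passed, with 1.95, 2.29 and 2.18 in LC-HFD lungs against 1.70, 1.61 and 1.71 in LC-RD lungs (difference 0.46, adjusted p = 0.0173). In total 2 of the 4 genes classed here as membrane-bound MMPs passed, both higher, and the lowest difference of the group was -0.02. Mmp23 was placed with the other MMPs and is not counted here. Over all genes 11.1% passed as higher and 16.2% as lower.

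The promoter of Mmp14 is shown because Mmp14, Timp1 and Timp3 rose together and their promoters can be set side by side. It comes from RefSeq on GRCm38.p6, runs from 250 bases before to 50 bases after the start of the gene at chr14:54431348-54431647 on the plus strand, and has GC boxes (GGGCGG on either strand) in capitals.
Mmp14: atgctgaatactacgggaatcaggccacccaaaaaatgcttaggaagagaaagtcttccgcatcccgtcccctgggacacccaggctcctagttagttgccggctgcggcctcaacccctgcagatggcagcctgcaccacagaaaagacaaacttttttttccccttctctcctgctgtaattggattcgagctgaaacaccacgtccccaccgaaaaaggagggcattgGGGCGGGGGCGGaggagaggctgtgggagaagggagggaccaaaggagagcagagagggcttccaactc
The 2 GC boxes begin 19 and 13 bases before the start and adjoin without overlap. An AP-1 site (TGANTCA) was not found in this window on either strand. The same was true of a CRE (TGACGTCA), and no TATA box (letters TATAAA) was found. Over all 32851 mouse promoters of this length, 35.7% held a GC box, 7.81% an AP-1 site, 13.6% a TATA box and 1.79% a CRE.

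Among the members, secreted MMPs did not pass in any class. Mmp12 is secreted too but was left out of the members, so this does not cover it. Among the gelatinases, Mmp2 had 8.61, 8.79 and 8.75 in LC-HFD lungs against 8.79, 8.85 and 8.64 in LC-RD lungs, which overlap (difference -0.05, 95% confidence interval -0.26 to 0.17). Mmp9, a gelatinase of neutrophils and macrophages, ranged from 4.41 to 5.41 in LC-HFD lungs and from 4.77 to 5.38 in LC-RD lungs (difference -0.18, adjusted p = 0.642). Its LC-HFD values spread more than those of any other Mmp gene, with an SD of 0.508. The collagenases Mmp8 and Mmp13 had differences of -0.11 and 0.10. In the neutrophil marker list, to which Mmp8 and Mmp9 belong, 1 of 10 genes passed as higher (Ngp) and 2 as lower (S100a8 and S100a9). The shares over all genes were 11.1% higher and 16.2% lower. The neutrophil list averaged 5.70 to 5.77 in LC-HFD against 5.77 to 5.84 in LC-RD. The 4 stromelysins and matrilysins all had positive differences, from 0.11 to 0.37 with a median of 0.29, and none passed.

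In that class, Mmp7, Mmp3 and Mmp11 are named after their values were seen, because their groups did not overlap. Mmp7, the matrilysin of mucosal epithelium, had 3.98, 3.99 and 4.17 in LC-HFD lungs against 3.88, 3.50 and 3.66 in LC-RD lungs (adjusted p = 0.0533). Mmp3, stromelysin-1, had 6.46, 5.92 and 6.0 in LC-HFD lungs against 5.86, 5.79 and 5.75 in LC-RD lungs (adjusted p = 0.133). Mmp11, stromelysin-3 of stromal cells, had 8.52, 8.66 and 8.41 in LC-HFD lungs against 8.28, 8.34 and 8.21 in LC-RD lungs (adjusted p = 0.0812). None of the 3 passed after adjustment. Their lack of overlap is the reason they are named, and 22.3% of all genes had LC-HFD above in that way. The other MMPs, Mmp19, Mmp20 (enamelysin of developing teeth) and Mmp23, had differences of 0.16, 0.31 and -0.17 with overlapping groups.

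Of the 4 TIMP genes, Timp3 and Timp1 rose, Timp2 narrowly missed the threshold and Timp4 differed with the probe set. Timp3, the matrix-bound inhibitor, had 10.64, 10.57 and 10.64 in LC-HFD lungs against 10.12, 10.07 and 10.21 in LC-RD lungs. The groups stood well apart (difference 0.48, SE 0.0748, adjusted p = 0.00493, 1.39-fold). All 4 probe sets of Timp3 passed, with differences of 0.27 to 0.48. Timp1, a soluble inhibitor that acts on most secreted MMPs and poorly on membrane-bound ones, had 6.79, 6.72 and 6.82 in LC-HFD lungs against 6.51, 6.42 and 6.55 in LC-RD lungs. Its increase was smaller (difference 0.29, SE 0.0753, adjusted p = 0.0311), and the call was lost in 5 of 6 fits that left out 1 lung, all but the one without LC-HFD replicate 2, with adjusted p up to 0.121 (without LC-RD replicate 2). Timp2, which inhibits MMPs and also docks pro-MMP2 on MT1-MMP, had 10.87, 10.83 and 10.90 in LC-HFD lungs against 10.69, 10.65 and 10.62 in LC-RD lungs. These values did not overlap either, and the difference of 0.22 (SE 0.0690) had an adjusted p of 0.0586. Among its 6 probe sets, with differences of -0.02 to 0.41, 2 passed as higher (0.33, adjusted p = 0.0408, and 0.41, adjusted p = 0.02). Timp4 had 4.20, 4.43 and 4.46 in LC-HFD lungs against 4.56, 4.31 and 4.84 in LC-RD lungs (difference -0.21, adjusted p = 0.320). Its dimmer probe set passed as lower, with 2.39, 2.79 and 3.34 in LC-HFD lungs against 3.79, 3.62 and 3.63 in LC-RD lungs (difference -0.84, adjusted p = 0.0299). The Timp4 values overlap on the first probe set and not on the second.

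The promoters of Timp3 and Timp1 are shown for comparison with that of Mmp14, with GC boxes again in capitals. In Timp1 the letters TGAGTAA, a variant of the AP-1 site, are in capitals as well. The windows are chr10:86300162-86300461 for Timp3 and chrX:20869916-20870215 for Timp1, both on the plus strand of GRCm38.p6.
Timp3: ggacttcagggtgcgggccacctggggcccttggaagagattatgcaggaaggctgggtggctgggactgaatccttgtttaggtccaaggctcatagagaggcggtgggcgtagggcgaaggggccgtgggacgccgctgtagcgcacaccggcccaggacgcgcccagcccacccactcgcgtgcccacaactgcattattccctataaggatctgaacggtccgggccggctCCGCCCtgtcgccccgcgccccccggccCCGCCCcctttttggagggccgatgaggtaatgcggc
Timp1: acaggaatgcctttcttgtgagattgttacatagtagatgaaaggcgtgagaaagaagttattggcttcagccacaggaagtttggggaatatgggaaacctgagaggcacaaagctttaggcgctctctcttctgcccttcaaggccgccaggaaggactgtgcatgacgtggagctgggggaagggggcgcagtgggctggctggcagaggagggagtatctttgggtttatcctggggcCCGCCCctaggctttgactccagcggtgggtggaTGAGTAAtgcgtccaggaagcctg
Each capital CCGCCC is a GC box read on the other strand. Timp3 has a GC box that begins 15 bases before the start and another 14 bases after it, and Timp1 has one 8 bases before the start. The variant TGAGTAA begins 27 bases after the start of Timp1 and occurs in 2.68% of all promoters. Of the 57 members, 30 had a promoter entry and 17 of these held a GC box, and 7 of the genes that passed had an entry, 6 of them with a GC box. In this assembly Timp1 lies within the gene Syn1 and Timp3 within Syn3.

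**Figure D3:**
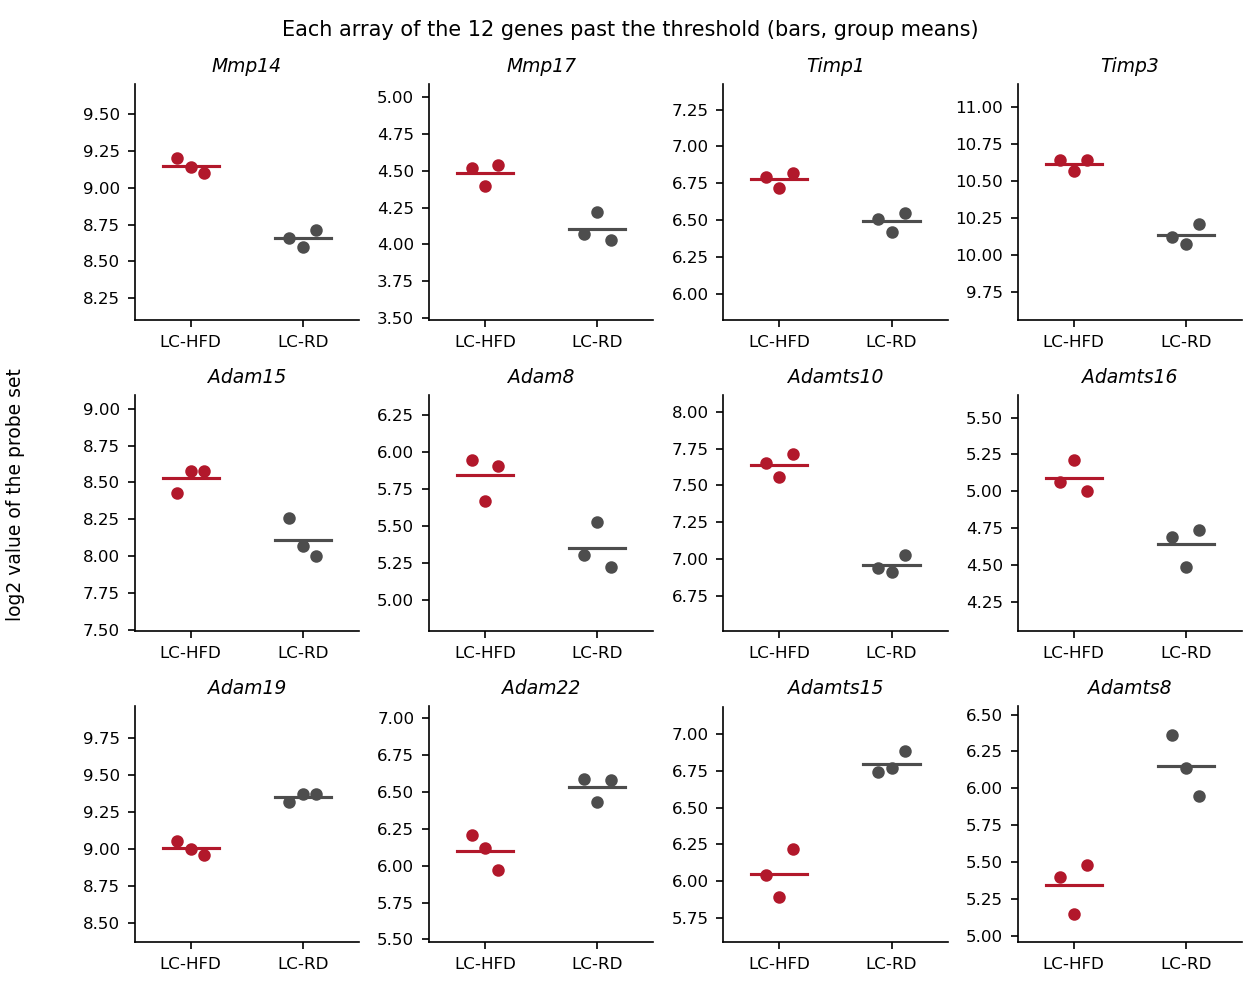
Log2 value of the probe set (y axis) in each lung for the 12 genes that passed, LC-HFD left and LC-RD right, with bars at the group means (n = 3 each) and the same height of axis in every panel. The first 8 panels show LC-HFD above LC-RD and the last 4 below, with no overlap in any panel.

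Among the 9 ADAMs that shed membrane proteins, 2 passed as higher and 1 as lower. Adam8, an ADAM of leukocytes, had 5.95, 5.67 and 5.91 in LC-HFD lungs against 5.30, 5.53 and 5.22 in LC-RD lungs. The lowest LC-HFD lung was only slightly above the highest LC-RD lung, and the difference was 0.49 (SE 0.115, adjusted p = 0.0210). Without LC-HFD replicate 1 or 3, or LC-RD replicate 1 or 3, the Adam8 call was lost (adjusted p of 0.0510, 0.0579, 0.0789 and 0.0679). In the macrophage marker list, 3 of 11 genes passed as higher (Marco, C1qa and Chil3) and none as lower. The differences were positive for 6 and negative for 5, with a median of 0.08, and ran from -0.32 (Siglecf) to 0.77 (Marco). All 11 had a mean of 6 or more. Of all such genes 12.1% passed as higher and 23.4% as lower. The list averaged 9.58 to 9.61 in LC-HFD and 9.46 to 9.49 in LC-RD. The part of these cells in the Adam8 value was not tested. Adam15, an ADAM with an integrin-binding motif, had 8.43, 8.58 and 8.58 in LC-HFD lungs against 8.26, 8.07 and 8.00 in LC-RD lungs (difference 0.42, SE 0.0951, adjusted p = 0.0186). This probe set is of a kind that can share sequence with other transcripts, and the other 3 probe sets of Adam15 gave 0.20 to 0.37 without passing. The Adam15 call was also lost without LC-HFD replicate 3 (adjusted p = 0.0506), LC-RD replicate 2 (0.0741) or LC-RD replicate 3 (0.0592).

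Adam19, which sheds neuregulins and is needed for heart development in mice, was the sheddase that fell. It had 9.05, 9.0 and 8.96 in LC-HFD lungs against 9.32, 9.37 and 9.37 in LC-RD lungs, a 1.27-fold decrease (difference -0.35, SE 0.0703, adjusted p = 0.0123). Both of its probe sets passed at -0.35, and the call of the brighter one was lost only without LC-RD replicate 2 (adjusted p = 0.0572) among the fits without 1 lung. Of the ADAMs best known for releasing EGFR ligands, TNF and Notch fragments, neither Adam10 nor Adam17 passed. Adam17 is named here after its values were seen. It had 8.95, 8.92 and 8.95 in LC-HFD lungs against 8.80, 8.79 and 8.88 in LC-RD lungs, again without overlap (difference 0.12, 95% confidence interval -0.05 to 0.28, adjusted p = 0.251). The other Adam17 probe sets gave 0.06 and -0.05, with overlap. Adam10 ranged from 9.72 to 9.95 in LC-HFD lungs and from 9.79 to 9.96 in LC-RD lungs (difference -0.04). One of its 4 probe sets did pass as lower, at -0.40 (adjusted p = 0.0223). Adam9 had 10.35, 10.31 and 10.36 in LC-HFD lungs against 10.36, 10.39 and 10.54 in LC-RD lungs (difference -0.09, 95% confidence interval -0.27 to 0.10).

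Of the 3 ADAMs of neurons that lack an active protease site, 1 passed. Adam22, a receptor for LGI1 at synapses, had 6.21, 6.12 and 5.97 in LC-HFD lungs against 6.59, 6.43 and 6.58 in LC-RD lungs. All LC-HFD lungs were below all LC-RD lungs (difference -0.43, SE 0.0902, adjusted p = 0.0138), and the second probe set gave -0.28 (adjusted p = 0.0540). Without LC-RD replicate 1 the Adam22 call was lost (adjusted p = 0.0625). Adam23 and Adam11 had differences of 0.37 and 0.16 and did not pass. The 3 probe sets of Adam23 ranged from -0.29 to 0.37, so no single direction can be given for it. The 11 Adam genes of the testis and epididymis gave no call, with a median difference of 0.12 and a range of -0.26 to 0.46. At the top of that range was Adam2, a sperm protein named here after its values were seen, with 2.58, 3.19 and 3.20 in LC-HFD lungs against 2.50, 2.61 and 2.48 in LC-RD lungs. These dim values overlap (adjusted p = 0.0898).

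The promoter of Adam22 is shown as that of a gene that fell, to set beside the 3 that rose (GRCm38.p6, chr5:8368111-8368410, minus strand).
Adam22: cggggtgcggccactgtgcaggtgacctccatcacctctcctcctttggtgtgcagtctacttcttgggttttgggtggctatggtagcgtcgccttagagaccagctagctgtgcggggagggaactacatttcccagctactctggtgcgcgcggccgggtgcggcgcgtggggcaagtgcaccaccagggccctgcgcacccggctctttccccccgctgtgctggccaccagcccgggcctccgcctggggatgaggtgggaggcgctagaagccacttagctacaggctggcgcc
It has no capitals because none of the motifs searched, the GC box included, was found in this window. Of the 7 genes that passed and had a promoter entry, 6 held a GC box, and Adam22 was the exception. It therefore does not stand for the genes that fell, and a link between GC boxes and direction was not tested.

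On the brightest probe sets the ADAMTS genes had the largest differences of all members in both directions. Adamts8 and Adamts15, proteoglycan-cleaving enzymes, fell most. Adamts8 had 5.40, 5.15 and 5.48 in LC-HFD lungs against 6.36, 6.14 and 5.95 in LC-RD lungs, and the groups were far apart (difference -0.81, SE 0.132, adjusted p = 0.00584, 1.75-fold lower). Adamts15 had 6.04, 5.89 and 6.22 in LC-HFD lungs against 6.74, 6.77 and 6.88 in LC-RD lungs (difference -0.74, SE 0.100, adjusted p = 0.00292, 1.68-fold lower). Both genes are read by 1 probe set each. They lie next to each other on chromosome 9 with 0 protein-coding genes between them. The order in RefSeq on GRCm38.p6 gave 14 pairs of successive members on a chromosome with at most 2 protein-coding genes between them. Adamts8 and Adamts15 were the pair in which both genes passed, and no gene of the other 13 pairs did. Many genes of those 13 pairs had a mean under 4, where no member passed. The remaining 5 of the 7 aggrecanases and versicanases did not pass, and the median of the 7 was -0.32.

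In this class Adamts1, an enzyme that cuts versican and aggrecan, had 8.98, 8.81 and 8.91 in LC-HFD lungs against 8.77, 8.80 and 8.81 in LC-RD lungs (difference 0.11, adjusted p = 0.331). Adamts9 had 7.44, 7.39 and 7.41 in LC-HFD lungs against 7.23, 7.29 and 7.06 in LC-RD lungs (difference 0.22, adjusted p = 0.0931), and another of its probe sets passed at 0.49 (adjusted p = 0.0496). Adamts5, the main aggrecanase of mouse cartilage, is named after its values were seen. It had 4.4, 4.6 and 4.74 in LC-HFD lungs against 4.90, 5.00 and 4.81 in LC-RD lungs (difference -0.32, adjusted p = 0.0649), again without overlap. The signs thus went both ways within the class, with Adamts8, Adamts15 and Adamts5 below in every LC-HFD lung and Adamts1 and Adamts9 not. Mesothelial markers were lower in LC-HFD for 5 of 7 genes (Bnc1, Lrrn4, Msln, Upk1b and Upk3b) and higher for 1 (Krt19). The share that was lower was 16.2% over all genes and 23.4% over genes with a mean of 6 or more. Such a mean was found for 4 of 7 mesothelial markers and for 11 of 12 fibroblast markers. The mesothelial list averaged 5.90 to 6.17 in LC-HFD against 6.39 to 6.46 in LC-RD. Fibroblast markers were lower for 5 of 12 (Dcn, Inmt, Lum, Pdgfra and Tcf21) and higher for 2 (Col1a1 and Mfap4), with averages of 8.47 to 8.53 in LC-HFD against 8.62 to 8.63 in LC-RD. The part of these cells in the decreases was not tested.

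Adamts10 and Adamts16 rose. Adamts10 binds fibrillin, and its human counterpart is mutated in Weill-Marchesani syndrome. It had 7.65, 7.56 and 7.71 in LC-HFD lungs against 6.94, 6.91 and 7.03 in LC-RD lungs, the largest increase among the brightest probe sets of the members (difference 0.68, SE 0.0773, adjusted p = 0.00163, 1.60-fold). A dim second probe set of Adamts10 gave -0.20 (adjusted p = 0.164), and the mean of the 2 probe sets gave 0.24 (adjusted p = 0.0430), against 0.55 for Mmp14 read in that way. Adamts16 had 5.06, 5.21 and 5.00 in LC-HFD lungs against 4.69, 4.49 and 4.74 in LC-RD lungs (difference 0.45, SE 0.0988, adjusted p = 0.0168), and its second probe set gave 0.16 (adjusted p = 0.302). Without LC-RD replicate 1 or 2 the Adamts16 call was lost (adjusted p of 0.0516 and 0.0630). Of the COMP-cleaving enzymes, Adamts7 had a difference of 0.21 and Adamts12 one of -0.39 (adjusted p = 0.0985). The procollagen-processing Adamts3 had 0.12.

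Genes with several probe sets allow the same comparison on different parts of a transcript. Of the 57 members, 28 had 1 probe set and 29 had several, 78 probe sets in all. In 20 of the 29 every probe set had the same sign, in 9 the signs were mixed, and no gene had probe sets that passed in opposite directions. Of the 7 genes that passed and had several probe sets, Mmp14, Timp3 and Adam19 passed on more than 1. Mmp16, Timp2, Timp4, Adam10 and Adamts9 passed only on a dimmer probe set. Counted over all 106 probe sets, 16 were higher and 7 lower in LC-HFD, where 11.3% and 13.6% of all probe sets were.

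**Figure D4:**
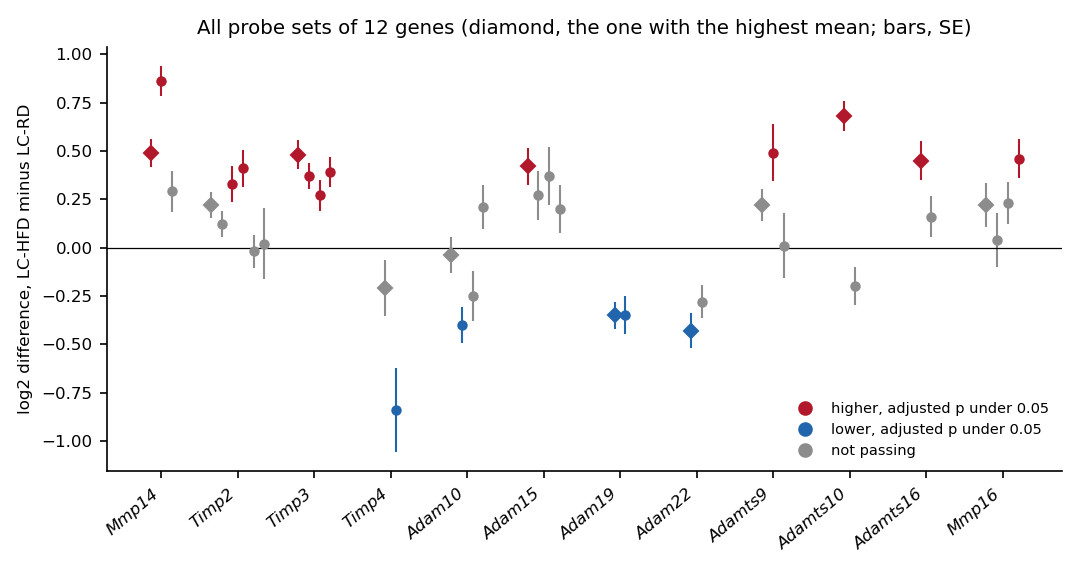
Log2 difference, LC-HFD minus LC-RD (y axis, bars are SE), of every probe set of 12 genes, with a diamond for the probe set of highest mean. The 4 probe sets of Timp3 lie between 0.27 and 0.48, while those of Adam10 lie on both sides of 0.

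Other genes that act on metalloproteinases were read from a list of activators, inhibitors and cofactors. Of 52 listed genes 50 were measured, 7 were higher and 5 lower in LC-HFD, and the median difference was 0.11. Over all genes 11.1% passed as higher and 16.2% as lower, so 12 of 50 is no more than the general share of 27.3%. The largest change was in Spock2, a proteoglycan linked to the control of membrane-type MMPs, with 9.35, 9.58 and 9.41 in LC-HFD lungs against 8.31, 8.23 and 8.28 in LC-RD lungs (difference 1.17, adjusted p = 0.000380). Its other probe set passed in the opposite direction at -0.63, so no single direction can be given for the gene. Bsg, which encodes the MMP inducer EMMPRIN, had 11.30, 11.38 and 11.30 in LC-HFD lungs against 10.68, 10.67 and 10.75 in LC-RD lungs (difference 0.63, adjusted p = 0.00159). St14, which encodes the epithelial protease matriptase, had 9.48, 9.55 and 9.52 in LC-HFD lungs against 8.95, 8.94 and 8.81 in LC-RD lungs (difference 0.62, adjusted p = 0.00205). Both stood clear of the LC-RD range in every LC-HFD lung. Adamtsl3, an ADAMTS-like protein without protease domain, had 4.18, 4.27 and 4.47 in LC-HFD lungs against 5.06, 4.86 and 5.07 in LC-RD lungs (difference -0.69, adjusted p = 0.00444), and its call was lost with the 3' minus 5' signal in the model (adjusted p = 0.0529).

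Reck and Furin act at opposite ends of MMP activity and are named after their values were seen. Reck, a membrane-anchored inhibitor of several MMPs, had 6.97, 6.90 and 6.83 in LC-HFD lungs against 7.49, 7.60 and 7.46 in LC-RD lungs (difference -0.61, adjusted p = 0.00249). It was thus lower in LC-HFD where Timp1 and Timp3 were higher. Furin, the convertase that removes the prodomain of membrane-type MMPs and of many ADAM and ADAMTS proteases, had 8.77, 8.64 and 8.76 in LC-HFD lungs against 8.20, 8.38 and 8.25 in LC-RD lungs (difference 0.45, adjusted p = 0.00888). The cofactors of ADAM17 maturation, Rhbdf1 and Rhbdf2, did not pass.

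Of 23 matrix substrates 22 were measured, of which 6 were higher and 1 was lower in LC-HFD, with a median difference of 0.14. Over all genes 27.3% passed, 11.1% as higher and 16.2% as lower. Among genes with a mean of 6 or more 35.5% passed, 12.1% as higher and 23.4% as lower. The calls in this list were thus mostly higher, whereas over all genes more were lower. Fbn2, a fibrillin of elastic microfibrils, had 6.18, 5.70 and 5.99 in LC-HFD lungs against 3.94, 3.88 and 3.68 in LC-RD lungs (difference 2.13, adjusted p = 0.000231). Hspg2, which encodes perlecan of basement membranes, had 8.59, 8.77 and 8.51 in LC-HFD lungs against 7.77, 7.61 and 7.66 in LC-RD lungs (difference 0.94, adjusted p = 0.00105). On both genes the second probe set passed in the same direction, at 2.16 and 1.23. Col4a2, a basement membrane collagen, differed by 0.52 (adjusted p = 0.00357), a call lost with the 3' minus 5' signal in the model (adjusted p = 0.0536). Eln, which encodes elastin, differed by 0.49 (adjusted p = 0.00873). The lower one was Dcn, which encodes the small proteoglycan decorin, at -0.25 (adjusted p = 0.0447). Acan (0.27) and Vcan (-0.25) encode the proteoglycans cut by the aggrecanases and did not pass, and these 3 genes are named after their values were seen.

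**Figure D5:**
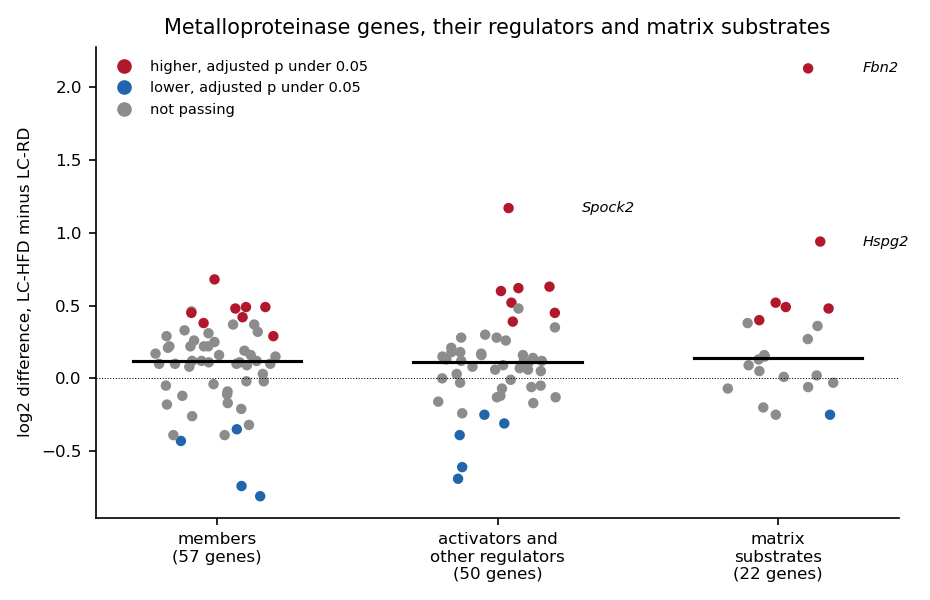
Log2 difference, LC-HFD minus LC-RD (y axis), of each gene in 3 lists: the 57 members, 50 activators and other regulators and 22 matrix substrates, with bars at the medians of 0.12, 0.11 and 0.14. Red points passed as higher in LC-HFD and blue points as lower, and the matrix substrate with the largest change, Fbn2, stands at 2.13.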

How the data were processed

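Lungs of 3 LC-HFD mice and of 3 LC-RD mice were profiled on separate arrays, without pooling. The authors deposited a table of log2 values, which the submitters' processing notes and the methods ascribe to GCRMA and Partek (versions not given in the sources used here). GCRMA corrects background by probe sequence and normalizes across arrays, which compresses dim signals toward a floor. The deposited values were not normalized again, and 0 columns were left unused.

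Of 45101 probe sets, 64 controls were set apart and 45037 were tested with limma 3.58.1 in R 4.3.3 (linear model, moderated two-sided test, Benjamini-Hochberg adjustment). Probe sets with 1 annotated gene (34945) were named, 932 with several genes and 9160 with none were not. Of the symbols, 34741 were matched through the Entrez ID, and no member's symbol changed. The 3 arrays per group limit the precision. Members, lists and tests were chosen with earlier results of these data known, so none is independent support. Named genes were up to 4 increases and 4 decreases that passed in each family, its 2 genes of highest mean, all Timp genes, role classes of 3 or fewer, and up to 4 genes of largest change in each list. Most genes outside the rule are marked where they appear. Sftpc, Rhbdf1, Rhbdf2, Adam7, Adam28, Adam33 and Adamts20 are outside it and are not marked. Marker genes that passed are named to account for each list, and some that did not pass are named beside them. The fit was tested on simulated data. Promoters are RefSeq windows searched for motifs on both strands. Alternatives were the methods' t-test, weights per array, a robust variance with an intensity trend, median centering, quantile normalization, a term for the 3' minus 5' signal, a 2-fold threshold, minimum means of 4 and 6, the mean of all probe sets of a gene, a replicate block and each array left out. A pseudocount did not apply to log2 values. Figures were drawn with Python 3.11.15 and matplotlib 3.10.9.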

Additional observations from a re-analysis of the deposited data

How the results depend on the processing

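The direction of all 12 genes that passed held in each of the 188 values computed under the alternatives, but most of these could not turn. The t-test, the intensity trend, the minimum means and the replicate block leave the difference itself unchanged. Because the groups of these genes did not overlap, array weights or leaving out 1 array cannot turn the sign. Only quantile normalization, median centering, the 3' minus 5' signal and the mean of all probe sets could have done so. Adamts10, Adamts15 and Timp3 passed in 16 of 16 settings, and Mmp14 in 15 of 16. Timp1 passed in 9 of 16 and Adam8 in 9 of 15. In all, 8 members were called higher, against 3 with the replicate block, 3 with the 3' minus 5' signal in the model, 0 over 2-fold and 5 to 8 when each array was left out, gained members included. For members called lower the count was 4, against 1 with that signal, 0 over 2-fold and 3 to 6 when each array was left out. Of the 8 higher genes themselves, 4 still passed without LC-RD replicate 1 and 4 without LC-RD replicate 3. Over all probe sets 11250 passed, against 781 over 2-fold, 3558 with that signal and 5792 to 11531 when each array was left out, the lowest without LC-RD replicate 2 (5792) and LC-RD replicate 1 (5835). With the mean of all probe sets of a gene the count was 5644 of 18193 genes, because fewer features were tested. Same-numbered arrays did not deviate together (correlations of -0.0431, -0.0930 and -0.0303), so the replicate block, which gave 3 higher and 5 lower members and 7906 probe sets in all, pairs arrays by number only. The block ended the calls of Mmp17, Timp1, Adam8, Adam15 and Adamts16. With the 3' minus 5' signal in the model, the calls left were Timp3, Adam8, Adamts10 and Adamts15. In that model the sign turned for 11 members that had not passed, among them Adam10 (0.04), Adam11 (-0.25), Mmp20 (-0.24) and Mmp23 (0.03). Quantile normalization turned the sign of 4 members that had not passed, among them Mmp13 (-0.01). Leaving out 1 array turned the sign of up to 6 such members in a fit. Ranges across 0 were found, among others, for Adam10 (-0.11 to 0.01), Adam11 (-0.02 to 0.44), Adamts3 (-0.02 to 0.26), Mmp13 (-0.05 to 0.25), Mmp2 (-0.10 to 0.01) and Mmp9 (-0.41 to 0.09). Timp2 gained a call under 5 settings, with the methods' t-test (adjusted p = 0.0212), the intensity trend (0.000614), median centering (0.0448) and minimum means of 4 (0.0221) and 6 (0.00696). Adamts9 gained one under 4 settings (adjusted p of 0.0215 to 0.0486), Mmp11 under 3 (0.0115 to 0.0441), Adamts5 under 3 (0.0378 to 0.0493), Mmp7 under 3 (0.0389 to 0.0448), Adamts20 under 3 (0.0363 to 0.0460), Adam2 under 2 (0.00502 to 0.0463) and Mmp16 under 2 (0.0411 to 0.0477). Adam7, Adam11, Adam28, Adam33, Adamts12 and Timp4 gained one under 1 setting each. The cause of these shifts was not tested. None of the 20 members with a mean under 4 passed, although 436 of the 5110 such genes on the array passed as higher and 111 as lower.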

Other observations

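Further cell marker lists were read in the same lungs. The CC10 promoter is active in club cells of the airway. Of 6 club cell markers, 3 were lower in LC-HFD (Cbr2, Cyp2f2 and Scgb3a2) and none was higher. Scgb1a1 (-0.11), Aldh1a7 (-0.08) and Hp (0.06) did not pass. All 6 had a mean of 6 or more, where 12.1% of all genes passed as higher and 23.4% as lower. The club cell list averaged 11.45 to 11.48 in LC-HFD against 11.77 to 11.79 in LC-RD. Blood vessel endothelial markers were mixed, with 3 of 12 higher (Emcn, Pecam1 and Tie1) and 4 lower (Cldn5, Erg, Sox17 and Tek). None of 8 smooth muscle markers passed. Of 6 alveolar type I markers Aqp5 was higher and Rtkn2 lower, and of 7 alveolar type II markers Abca3 was higher. Of 8 lymphocyte markers Cd79a was higher and Ms4a1 lower, although both belong to B cells. Over all genes 27.3% passed.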
